A study of Homo sapiens with 8 samples.

Results

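The insulin-like growth factor (IGF) system was followed through 10 genes chosen by symbol: the ligand IGF2, the binding proteins IGFBP1 to IGFBP7, and the receptors IGF1R and IGF2R. All 10 were among the 46427 gene symbols of the count table. The filter on low counts left 18303 genes for testing, 9 of the 10 among them, and IGFBP1 was the one that did not pass. The cells of all groups were wild-type cultures of 1 human embryonic stem cell line, H7, labelled as differentiated type 2 alveolar cells, the cell type that makes lung surfactant. H7 cells had spent 21 days submerged, passing through definitive endoderm (6 days), anterior foregut endoderm (4 days) and its ventralized form (4 days) to lung progenitors (7 days), and the progenitors then had 3 days submerged and 7 days at an air-liquid interface on culture inserts. The 4 groups of 2 libraries each were a control, for which no vehicle is named, and cultures given bleomycin, a DNA-breaking drug used to model lung fibrosis, at 24, 240 or 480 µg/ml for 24 h, in 500 µl on the apical side. The labels also give a stock in phosphate-buffered saline of 10 µg/ml, which is below every dose, so the doses are given here as labelled. The labels do not say whether the 2 libraries of a group came from separate cultures. The p-values therefore set group differences against a spread between libraries that may be technical.

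IGF1 and IGF2 are secreted growth factors that signal through the receptor tyrosine kinase IGF1R to the phosphoinositide 3-kinase, AKT and mTOR pathway. IGF2R, the cation-independent mannose phosphate receptor, has no kinase and carries IGF2 to the lysosome. The IGFBP proteins are secreted, hold the ligands outside the cell with high affinity (low in IGFBP7), and are cut by proteases that release the ligand; IGFBP3 and IGFBP5 are known to be abundant in fibrotic lung.

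Total counts per library were between 53431773 and 67715984. The libraries of the 480 µg/ml group stood further apart than those of any other group. The standard deviation of the log2 ratio between the pair was 0.637 over the tested genes, against 0.502 to 0.520 in the 24 and 240 µg/ml and control groups. A chi-square per degree of freedom on the pair's counts weighs genes with many counts more. It was 147 at 480 µg/ml, 47.1 at 24 µg/ml, 20 at 240 µg/ml and 17.3 in control, so the 24 µg/ml pair was the next widest by that measure. The p53 targets CDKN1A, a cell cycle inhibitor, and MDM2, which degrades p53, rose at 480 µg/ml by 2.46 ± 0.19 and 1.84 ± 0.13 on the log2 scale (± SE, edgeR adjusted p = 0.000137 and 0.000107). At 240 µg/ml they rose by 2.03 ± 0.19 and 1.63 ± 0.13 (edgeR adjusted p = 0.0013 and 0.00072). Their log2 fold changes at 24 µg/ml were 0.82 ± 0.18 and 0.72 ± 0.12, with no overlap with control. These were not called (edgeR unadjusted p = 0.00163 and 0.000274, adjusted p = 0.67 and 0.356). The labelled cell type was only partly borne out by its 11 marker genes. In the control libraries the surfactant genes SFTPC and SFTPA1 were at 0 counts. SFTPB was at 15 and 13.8 TPM (transcripts scaled by length to 1000000 per library) and NKX2-1 at 0.831 and 1.09 TPM. The highest of the 11 was LPCAT1, at 67.6 and 70.2 TPM. In the same libraries the hepatic marker AFP was at 39081 and 43234 TPM, and the intestinal marker CDH17 at 1148 and 1252 TPM. In such mixed cultures, fewer cells of a type and less RNA per cell cannot be told apart.

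Per transcript length, the control cultures held far more message for IGF2 and IGFBP2 than for the other members. IGFBP2, a binding protein made in fetal tissues, had the highest level, 1199 ± 63.1 TPM (mean ± SD, n = 2 control libraries), and stood 134th from the top among 46427 symbols. IGF2, the fetal growth factor, followed at 475 ± 2.37 TPM, then IGFBP6 at 152 ± 4.72 TPM and IGFBP5 at 114 ± 11.3 TPM. IGF2R at 78.9 ± 6.21 TPM and IGFBP3 at 78.2 ± 3.40 TPM did not differ beyond their spread. IGF1R at 20.3 ± 2.25 TPM, IGFBP4 at 17.3 ± 0.854 TPM and IGFBP7 at 9.45 ± 0.741 TPM closed the order. At 480 µg/ml IGFBP2 (1112 and 1200 TPM) and IGF2 (298 and 331 TPM) still led. IGFBP6 (113 and 127 TPM) and IGF2R (128 and 97.7 TPM) overlapped each other there, as did IGFBP3 (29.1 and 21.9 TPM) and IGFBP5 (27.8 and 19.2 TPM), and IGFBP7 (7.52 and 10.8 TPM) and IGFBP4 (7.98 and 9.09 TPM).

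At 480 µg/ml IGFBP5, IGFBP3, IGFBP4, IGF1R and IGF2 fell, IGF2R rose, and IGFBP2, IGFBP6 and IGFBP7 did not pass the test. That made 5 of 9 tested members lower and 1 of 9 higher, where 13.9% of all tested genes were lower and 13.9% higher (27.8% called in either direction; edgeR adjusted p below 0.05). At 240 µg/ml IGFBP3 and IGFBP5 fell, 2 of 9, against a background of 5.17% lower and 10.3% called in either direction. At 24 µg/ml no member was called by edgeR, 0 of 9 had an unadjusted p below 0.05, and 0% of all genes were called; DESeq2 and limma called none of the members there either. The median log2 fold change over the 9 members was 0.04 at 24 µg/ml, -0.18 at 240 µg/ml and -0.55 at 480 µg/ml, while the median over all tested genes was 0.01 at each dose.

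**Figure D1:**
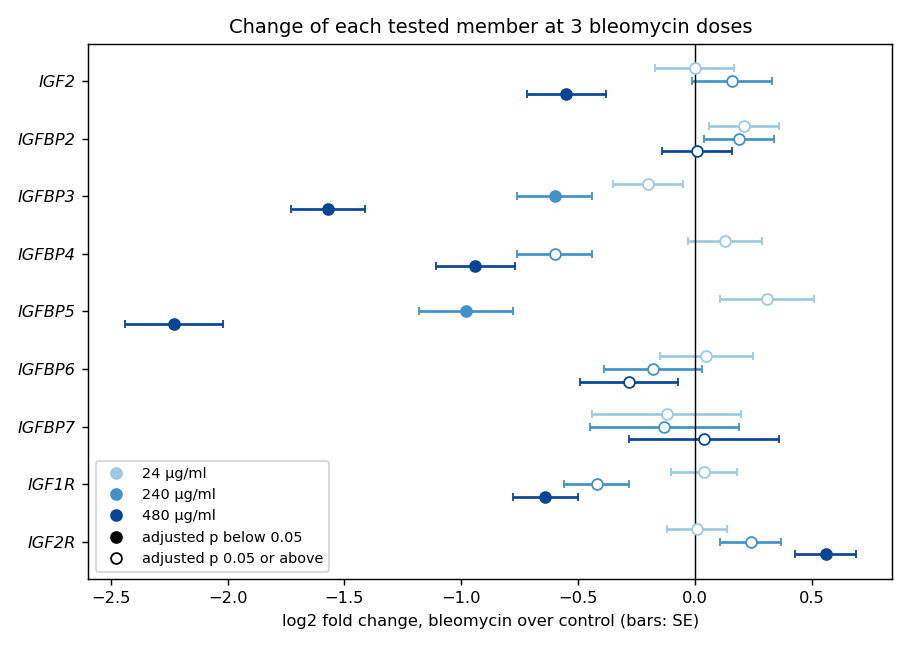
Log2 fold change of each tested member, bleomycin over control (x axis), at 24, 240 and 480 µg/ml from top to bottom within each gene; bars are the standard error of the edgeR fit and filled points have an adjusted p below 0.05. IGFBP5 and IGFBP3 lie farthest to the left at 480 µg/ml, at -2.23 and -1.57, and IGF2R is the filled point to the right of 0, at 0.56.

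Between neighbouring doses, IGFBP5 fell by 1.30 ± 0.20 and IGFBP4 by 0.73 ± 0.16 on the log2 scale at 240 against 24 µg/ml (± SE; edgeR adjusted p = 0.0142 and 0.0358). These 2 of 9 members stood against 3.49% of all genes lower and 6.83% called in either direction. The IGFBP5 call was lost without replicate 2 of the 24 µg/ml group (adjusted p = 0.106, log2 fold change -0.98) and without either 240 µg/ml library (0.111 for replicate 1, 0.106 for replicate 2). The IGFBP4 call was lost without any one library of the control (0.0777 and 0.0784), 24 µg/ml (0.168 and 0.164) or 240 µg/ml group (0.218 and 0.180, replicates 1 and 2 in each). Between 480 and 240 µg/ml edgeR called 0 of 9 members, 4 had an unadjusted p below 0.05, and 0.257% of all genes were called. DESeq2 called 3 of the 4, IGFBP3, IGFBP5 and IGF2, and the fourth was IGF2R. The log2 fold changes at 480 against 240 µg/ml were -1.25 ± 0.20 for IGFBP5 (edgeR adjusted p = 0.0594), -0.97 ± 0.16 for IGFBP3 (0.0555), -0.71 ± 0.17 for IGF2 (0.168) and 0.33 ± 0.13 for IGF2R (0.371). Without 480 µg/ml replicate 2, edgeR called 4 members in that step, IGFBP5 (0.0311), IGFBP3 (0.0270), IGF2 (0.0245) and IGFBP4, and without 480 µg/ml replicate 1 it called 3, IGFBP5 (0.0163), IGFBP3 (0.0148) and IGF1R. A test for any difference among the 4 groups passed for IGFBP5, IGFBP3, IGFBP4, IGF1R and IGF2R, 5 of 9 members against 21.3% of all genes, with adjusted p between 0.0006 and 0.0260; for IGF2 it was 0.0626. IGFBP5, IGFBP3 and IGFBP4 kept this call in every alternative run. IGF1R lost it without any one library of the control, 24 µg/ml or 240 µg/ml group, IGF2R without those of the control and 240 µg/ml groups or replicate 2 of the 24 µg/ml group, and both lost it in limma.

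The ligand IGF2 was abundant in every library and fell at the highest dose. Its normalized level was 1127 and 1060 CPM (counts scaled to 1000000 per library) in control, 1094 and 1091 CPM at 24 µg/ml, 1044 and 1405 CPM at 240 µg/ml, and 640 and 852 CPM at 480 µg/ml (library sizes scaled by TMM factors throughout). Both 480 µg/ml libraries lay below all others, and the 240 µg/ml pair held both the highest library and one below the controls. IGF2 fell by 0.55 ± 0.17 on the log2 scale at 480 µg/ml (edgeR adjusted p = 0.0432; a 1.47-fold lower level), and at 240 µg/ml its log2 fold change was 0.16 ± 0.17 (adjusted p = 0.594). The 480 µg/ml call was lost without either control library (adjusted p = 0.174 for replicate 1, 0.122 for replicate 2), without either 24 µg/ml library (0.0688 for replicate 1, 0.0665 for replicate 2), without replicate 1 of the 480 µg/ml group (0.0910, log2 fold change -0.37), and in a fit of the 480 µg/ml and control groups alone (0.0816). IGF2 lies at chr11:2129117-2149566 on the minus strand (GRCh38.p14). The antisense IGF2-AS was at 0.586 to 1.70 TPM over the 8 libraries and the readthrough INS-IGF2 had 0 counts in all 8, while IGF2 was at 298 to 574 TPM. The strand setting of the counting is not given in the sources used here, so sense and antisense reads may not be separated.

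The binding proteins that fell were IGFBP5, IGFBP3 and IGFBP4. Their promoter windows are printed here because these binding proteins fell, and that of IGF2R because it rose. Each window runs from 250 bases before to 50 bases after the gene's start, is read 5′ to 3′ on the gene's own strand, and comes from RefSeq (GRCh38.p14). IGFBP5 is on the minus strand at chr2:216695500-216695799, IGFBP3 on the minus strand at chr7:45921223-45921522, IGFBP4 on the plus strand at chr17:40443200-40443499 and IGF2R on the plus strand at chr6:159968832-159969131. Capitals mark TTTAAA in the IGFBP5 window, TATATA in the IGFBP3 window, TATAAA in the IGFBP4 window and CACGTG, the E-box read by bHLH factors, in the IGF2R window.
IGFBP5: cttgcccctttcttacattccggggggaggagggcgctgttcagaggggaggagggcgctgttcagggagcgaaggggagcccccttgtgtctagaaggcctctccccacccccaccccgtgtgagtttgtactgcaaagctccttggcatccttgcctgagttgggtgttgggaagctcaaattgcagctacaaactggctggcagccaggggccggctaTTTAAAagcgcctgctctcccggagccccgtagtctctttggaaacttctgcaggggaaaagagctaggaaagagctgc
IGFBP3: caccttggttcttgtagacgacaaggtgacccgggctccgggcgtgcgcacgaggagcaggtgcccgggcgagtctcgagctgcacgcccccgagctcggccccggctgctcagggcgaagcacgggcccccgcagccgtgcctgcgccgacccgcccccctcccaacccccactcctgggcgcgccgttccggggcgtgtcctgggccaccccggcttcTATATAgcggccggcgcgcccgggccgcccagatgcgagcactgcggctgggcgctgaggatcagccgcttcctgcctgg
IGFBP4: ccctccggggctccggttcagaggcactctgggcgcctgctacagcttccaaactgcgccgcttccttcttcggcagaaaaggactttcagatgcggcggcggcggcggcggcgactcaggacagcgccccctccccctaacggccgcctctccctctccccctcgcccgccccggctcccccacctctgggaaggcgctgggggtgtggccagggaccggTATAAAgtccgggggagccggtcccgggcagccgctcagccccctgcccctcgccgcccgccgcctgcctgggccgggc
IGF2R: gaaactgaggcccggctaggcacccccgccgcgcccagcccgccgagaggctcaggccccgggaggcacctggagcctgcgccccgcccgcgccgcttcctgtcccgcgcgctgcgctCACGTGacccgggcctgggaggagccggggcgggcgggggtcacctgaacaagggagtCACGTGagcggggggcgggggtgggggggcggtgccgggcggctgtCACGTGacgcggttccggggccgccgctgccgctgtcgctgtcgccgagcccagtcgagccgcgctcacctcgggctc

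The A/T-rich runs stand where TATA boxes are usually found: TTTAAA starts 29 bases before the start of IGFBP5, TATATA 30 bases before that of IGFBP3 and TATAAA 29 bases before that of IGFBP4. None of the 3 runs is in the windows of IGFBP2, IGFBP6, IGF1R or IGF2R, although IGF1R also fell at 480 µg/ml. No window was available for IGFBP1, IGFBP7 and IGF2. Of all 35116 promoter windows, 22.6% hold one of the 3 runs on either strand and 4.54% hold one that begins 35 to 25 bases before the start. The IGF2R window holds CACGTG 3 times, beginning 132, 74 and 28 bases before the start. Of all windows, 33 (0.094%) hold it at least 3 times and 7.26% hold it at all. GGGCGG occurs 6 times in the IGF2R window on either strand, and 2.86% of windows hold at least 6. All these motifs except TATAAA and GGGCGG read the same on both strands. The motifs were chosen after the sequences and the fold changes had been seen, and a match in letters is a description, not a binding site.

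IGFBP5, which binds both IGFs and the extracellular matrix, showed the largest change among the members. It was at 296 and 319 CPM in control, 307 and 458 CPM at 24 µg/ml, 137 and 174 CPM at 240 µg/ml, and 71.5 and 59.4 CPM at 480 µg/ml. The 240 and 480 µg/ml libraries lay below every control and 24 µg/ml library without overlap, and replicate 2 at 24 µg/ml was the highest of all. IGFBP5 fell by 0.98 ± 0.20 on the log2 scale at 240 µg/ml and by 2.23 ± 0.21 at 480 µg/ml (± SE; edgeR adjusted p = 0.0202 and 0.000290), a 1.98-fold and a 4.70-fold lower level. The 480 µg/ml call was kept in all 15 alternatives (adjusted p from 3.1e-27 to 0.00354). The 240 µg/ml call was lost without either control library (0.105 for replicate 1, 0.130 for replicate 2) and without either library of its own dose (0.148 for replicate 1, 0.0927 for replicate 2).

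IGFBP3, the main carrier of IGFs in blood and a gene that p53 is known to induce in human cells, fell at both upper doses. It was at 89.0 and 88.7 CPM in control, 80.6 and 74.0 CPM at 24 µg/ml, 49.9 and 67.6 CPM at 240 µg/ml, and 31.4 and 28.5 CPM at 480 µg/ml. No 2 neighbouring doses overlapped, and the 240 µg/ml pair was the widest. IGFBP3 fell by 1.57 ± 0.16 on the log2 scale at 480 µg/ml (edgeR adjusted p = 0.000379; a 2.97-fold lower level), a call kept in all 15 alternatives (7.14e-18 to 0.00496), while the p53 targets CDKN1A and MDM2 rose in the same libraries. At 240 µg/ml it fell by 0.60 ± 0.16 (adjusted p = 0.0438), a call lost without any one library of the control (0.204 and 0.208 for replicates 1 and 2), 24 µg/ml (0.0815 and 0.0816) or 240 µg/ml group (0.261 with log2 fold change -0.39, and 0.0771 with -0.83), and in limma on log2(TPM + 1) (0.0514).

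IGFBP4, which mostly restrains IGF action until the protease PAPPA cuts it, was the least abundant of the 3. It was at 16.5 and 16.6 CPM in control, 18.7 and 17.6 CPM at 24 µg/ml, 10.2 and 11.7 CPM at 240 µg/ml, and 7.26 and 9.95 CPM at 480 µg/ml. All 4 libraries at the upper doses lay below the control and 24 µg/ml libraries. IGFBP4 fell by 0.94 ± 0.17 on the log2 scale at 480 µg/ml (edgeR adjusted p = 0.00384; a 1.92-fold lower level), in all 15 alternatives (2.91e-05 to 0.0296). At 240 µg/ml its log2 fold change of -0.60 ± 0.16 was just outside the threshold (adjusted p = 0.0520) and passed in 8 of 15 alternatives, among them without 480 µg/ml replicate 1 (0.00380) or replicate 2 (0.00388), with a range of 0.00296 to 0.266.

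**Figure D2:**
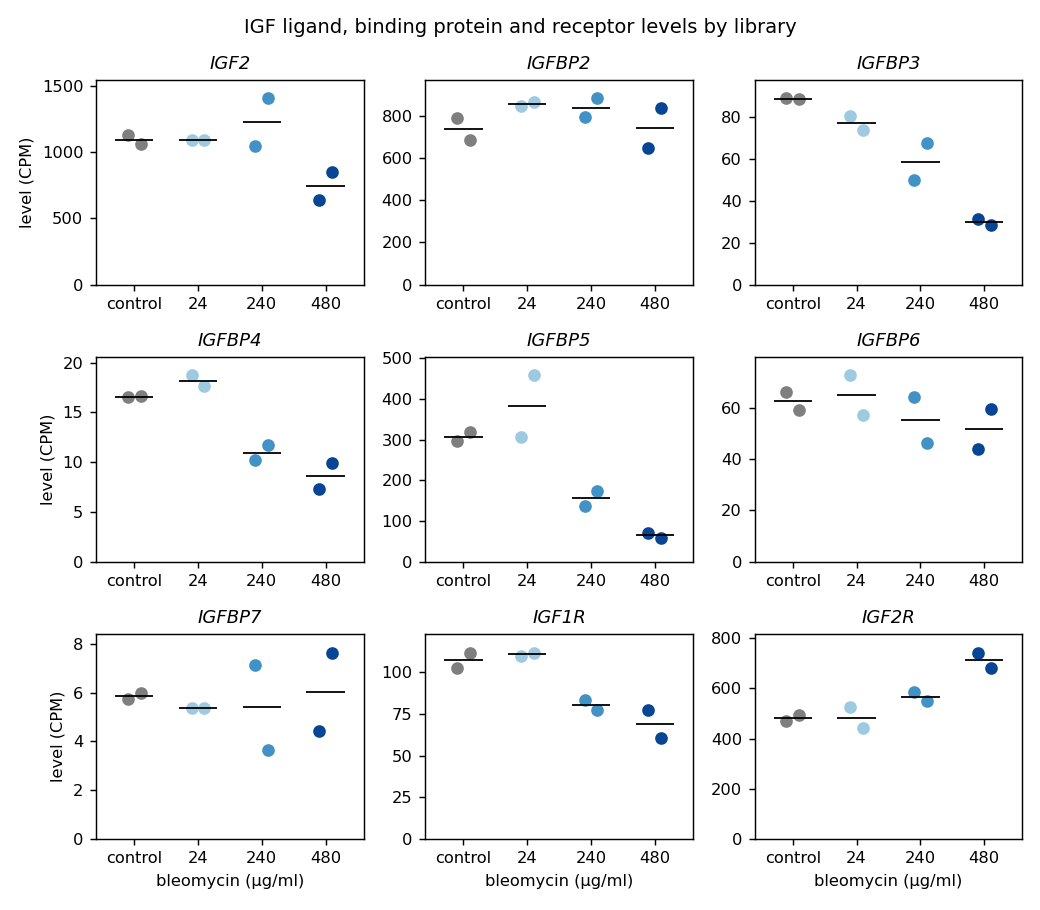
Level of each tested member in the 8 libraries (y axes, CPM on TMM-scaled library sizes, starting at 0), by bleomycin dose in µg/ml; points are libraries and bars the mean of 2. IGFBP5, IGFBP3 and IGFBP4 step down at 240 and 480 µg/ml, IGF2R is highest at 480 µg/ml (743 and 682 CPM), and the 480 µg/ml pairs of IGFBP2, IGFBP6 and IGFBP7 straddle the control mean or overlap the control libraries.

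The other binding proteins did not pass the test at any dose. IGFBP2, which made up most of the binding protein message, was at 789 and 687 CPM in control, 847 and 865 CPM at 24 µg/ml, 796 and 884 CPM at 240 µg/ml, and 647 and 840 CPM at 480 µg/ml, so that its 480 µg/ml libraries enclosed the controls. Its log2 fold change at 480 µg/ml was 0.01 ± 0.15 (edgeR adjusted p = 0.967). IGFBP6, which prefers IGF2 over IGF1, was at 66.3 and 59.4 CPM in control, 72.7 and 57.2 CPM at 24 µg/ml, 64.3 and 46.5 CPM at 240 µg/ml, and 44.1 and 59.6 CPM at 480 µg/ml, with a log2 fold change of -0.28 ± 0.21 at 480 µg/ml (adjusted p = 0.344). Its groups overlapped at every dose. IGFBP7, a low-affinity member linked to matrix and vessels, was at 5.74 and 5.99 CPM in control, 5.39 CPM in both libraries at 24 µg/ml, 7.13 and 3.66 CPM at 240 µg/ml, and 4.44 and 7.65 CPM at 480 µg/ml (log2 fold change 0.04 ± 0.32 at 480 µg/ml, adjusted p = 0.935). Its pairs at the upper doses were the widest of any member relative to their mean. IGFBP1, an insulin-regulated gene of liver and decidua, had 10 counts in replicate 1 at 24 µg/ml (0.151 CPM) and 0 counts in the other 7 libraries, where 3 counts, the limit that a count of 0 allows, would be 0.0439 to 0.0576 CPM. These limits cover counting error only. Its near absence stood beside abundant message of the hepatic marker AFP, at 32052 to 57345 TPM over the 8 libraries.

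Among the members are 2 pairs of neighbours. IGFBP2 (chr2:216632828-216664436, plus strand) and IGFBP5 (chr2:216672105-216695549, minus strand) end towards each other across 7668 bases with no annotated gene wholly between them, and at 480 µg/ml IGFBP5 fell while IGFBP2 had the log2 fold change of 0.01 given above. On chromosome 7, IGFBP1 (chr7:45888488-45893660, plus strand) and IGFBP3 (chr7:45912245-45921272, minus strand) lie tail to tail across 18584 bases, at 0 TPM for IGFBP1 and 78.2 TPM for IGFBP3 in control. The difference between 2 genes' fold changes was not tested.

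Summed in TPM, the binding proteins other than IGFBP2 had less message at the upper doses. Their sum was 363 and 379 TPM in control, 384 and 410 TPM at 24 µg/ml, 253 and 237 TPM at 240 µg/ml, and 185 and 188 TPM at 480 µg/ml. With IGFBP2 included the sum was 1607 and 1534 TPM in control, 1747 and 1852 TPM at 24 µg/ml, 1459 and 1578 TPM at 240 µg/ml, and 1297 and 1388 TPM at 480 µg/ml. IGFBP2 thus took 85.7% and 86.5% of the binding protein TPM at 480 µg/ml, against 77.4% and 75.3% in control, and IGFBP5 took 2.14% and 1.38% at 480 µg/ml, against 6.57% and 7.93% in control. Binding protein TPM per IGF2 TPM was 3.39 and 3.22 in control, 3.71 and 3.79 at 24 µg/ml, 3.44 and 2.75 at 240 µg/ml, while the 480 µg/ml libraries had 4.35 and 4.20. These sums and ratios are of message, are a description with no test, and rest on the same values as the calls.

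**Figure D3:**
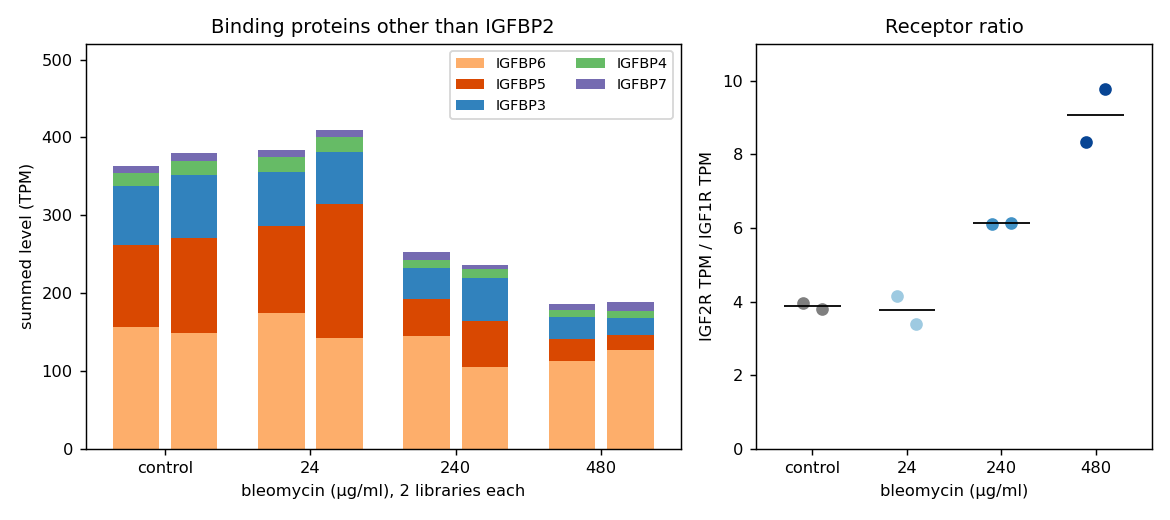
Left, stacked TPM of IGFBP6, IGFBP5, IGFBP3, IGFBP4 and IGFBP7 in each of the 8 libraries by bleomycin dose; right, the ratio of IGF2R to IGF1R TPM, with points for libraries and bars for the mean of 2. The stacks at 480 µg/ml reach 185 and 188 TPM, against 363 and 379 TPM in control, and the receptor ratio is 8.34 and 9.78 at 480 µg/ml, against 3.97 and 3.80 in control.

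The receptors went in opposite directions at 480 µg/ml. IGF1R, the signalling receptor, was at 103 and 112 CPM in control, 110 and 112 CPM at 24 µg/ml, 83.5 and 77.4 CPM at 240 µg/ml, and 77.5 and 60.5 CPM at 480 µg/ml. The control and 24 µg/ml libraries lay above all libraries of the upper doses, and the 240 and 480 µg/ml libraries overlapped. IGF1R fell by 0.64 ± 0.14 on the log2 scale at 480 µg/ml (edgeR adjusted p = 0.0101; a 1.56-fold lower level), a call lost without control replicate 2 (0.0896) and in a fit of those groups alone (0.0586). At 240 µg/ml its log2 fold change was -0.42 ± 0.14 (adjusted p = 0.0918), and the test passed there without 480 µg/ml replicate 1 (0.00491) or replicate 2 (0.00504).

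IGF2R, which clears IGF2, was at 471 and 493 CPM in control, 527 and 440 CPM at 24 µg/ml, 586 and 548 CPM at 240 µg/ml, and 743 and 682 CPM at 480 µg/ml. The 480 µg/ml libraries lay above all others, and the 24 µg/ml pair enclosed the controls. IGF2R rose by 0.56 ± 0.13 on the log2 scale at 480 µg/ml (edgeR adjusted p = 0.0108; a 1.48-fold higher level), a call lost without control replicate 1 (0.0998) or control replicate 2 (0.0740). Per transcript length, IGF2R over IGF1R was 3.97 and 3.80 in control, 4.14 and 3.40 at 24 µg/ml, 6.11 and 6.14 at 240 µg/ml, while the 480 µg/ml libraries had 8.34 and 9.78. In TPM alone the IGF2R libraries at 480 µg/ml, 128 and 97.7 TPM, stood further apart than in CPM, with 74.5 and 83.3 TPM in control.

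Of the other ligands, receptors and carriers, 3 of 6 passed the filter (IGF1, INSR and IGFBPL1), and IGF1 was the one called at 240 and at 480 µg/ml, 1 of 3 against 10.3% and 27.8% of all genes. IGF1, the other ligand of IGF1R, was at 4.87 and 6.70 CPM in control, 4.17 and 5.01 CPM at 24 µg/ml, 2.54 and 1.94 CPM at 240 µg/ml, and 1.12 and 0.697 CPM at 480 µg/ml. Both upper doses lay below the rest without overlap. IGF1 fell by 2.67 ± 0.29 on the log2 scale at 480 µg/ml (edgeR adjusted p = 0.000510), in all 15 alternatives, and by 1.37 ± 0.27 at 240 µg/ml (0.0181), a call lost without either control library (0.0593 for replicate 1, 0.133 for replicate 2) or either 240 µg/ml library (0.0737 for replicate 1, 0.157 for replicate 2). INSR, the insulin receptor, had a log2 fold change of -0.24 ± 0.14 at 480 µg/ml and was not called.

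Among the 7 proteases of the binding proteins and their inhibitors, all tested, 1 was called lower at 240 µg/ml and 0 at 480 µg/ml by edgeR, where 0 had an unadjusted p below 0.05; of all genes 10.3% and 27.8% were called at these doses. PAPPA2, a protease that cuts IGFBP3 and IGFBP5, fell by 1.52 ± 0.38 on the log2 scale at 240 µg/ml, at 0.334 against 0.952 CPM in control (edgeR adjusted p = 0.0372), and had 0.838 CPM at 480 µg/ml. That call was lost in 9 of 15 alternatives, among them without any one library of the control (0.167 and 0.145 for replicates 1 and 2), 24 µg/ml (0.0566 and 0.0581) or 240 µg/ml group (0.0825 and 0.243). Of the IGF2 locus and mRNA binders, 4 of 6 passed the filter and 1 was called at 480 µg/ml, against 27.8% of all genes. IGF2BP1, a fetal protein that binds IGF2 mRNA, fell there by 0.72 ± 0.13 (146 against 241 CPM; adjusted p = 0.00428), in all 15 alternatives.

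In receptor signalling, all 28 genes of the list reported here were tested; 1 rose and 1 fell at 240 µg/ml, and 2 rose and 2 fell at 480 µg/ml. These 2 of 28 and 4 of 28 were smaller shares than the 10.3% and 27.8% of all genes called at these doses, so they say nothing particular about the list. The adaptor IRS1, which couples IGF1R to phosphoinositide 3-kinase, fell by 0.97 ± 0.12 on the log2 scale at 480 µg/ml (62.5 against 123 CPM; edgeR adjusted p = 0.000893) and by 0.46 ± 0.12 at 240 µg/ml (89.1 CPM; 0.0444). TSC2, a brake on mTOR, rose by 0.98 ± 0.15 at 480 µg/ml (76.5 against 38.7 CPM; 0.00215) and by 0.76 ± 0.15 at 240 µg/ml (65.8 CPM; 0.0183). The kinase MTOR itself rose by 0.85 ± 0.11 at 480 µg/ml (67.7 against 37.6 CPM; 0.00114), so that a kinase and its brake were both higher. FOXO4, a transcription factor held back by AKT, fell by 0.51 ± 0.13 at 480 µg/ml (34.5 against 49.2 CPM; 0.0166). The median log2 fold change of the 28 genes at 480 µg/ml was -0.12, beside 0.01 over all tested genes; it was -0.24 over the 3 tested ligands, receptors and carriers, -0.22 over the 7 proteases and inhibitors and -0.53 over the 4 tested IGF2 locus and mRNA binders.

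Those calls differed in how far they rested on single libraries. At 480 µg/ml, IRS1, TSC2 and MTOR were kept in all 15 alternatives. FOXO4 was lost without control replicate 1 (edgeR adjusted p = 0.155) and in a fit of the 480 µg/ml and control groups alone (0.0850). At 240 µg/ml, IRS1 was lost in 8 of 15 alternatives, among them limma (0.0543) and the fits without any one library of the control (0.266 and 0.186), 24 µg/ml (0.0934 and 0.0917) or 240 µg/ml group (0.120 and 0.317), and TSC2 without either control library (0.135 and 0.141) or either 240 µg/ml library (0.0708 and 0.160).

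**Figure D4:**
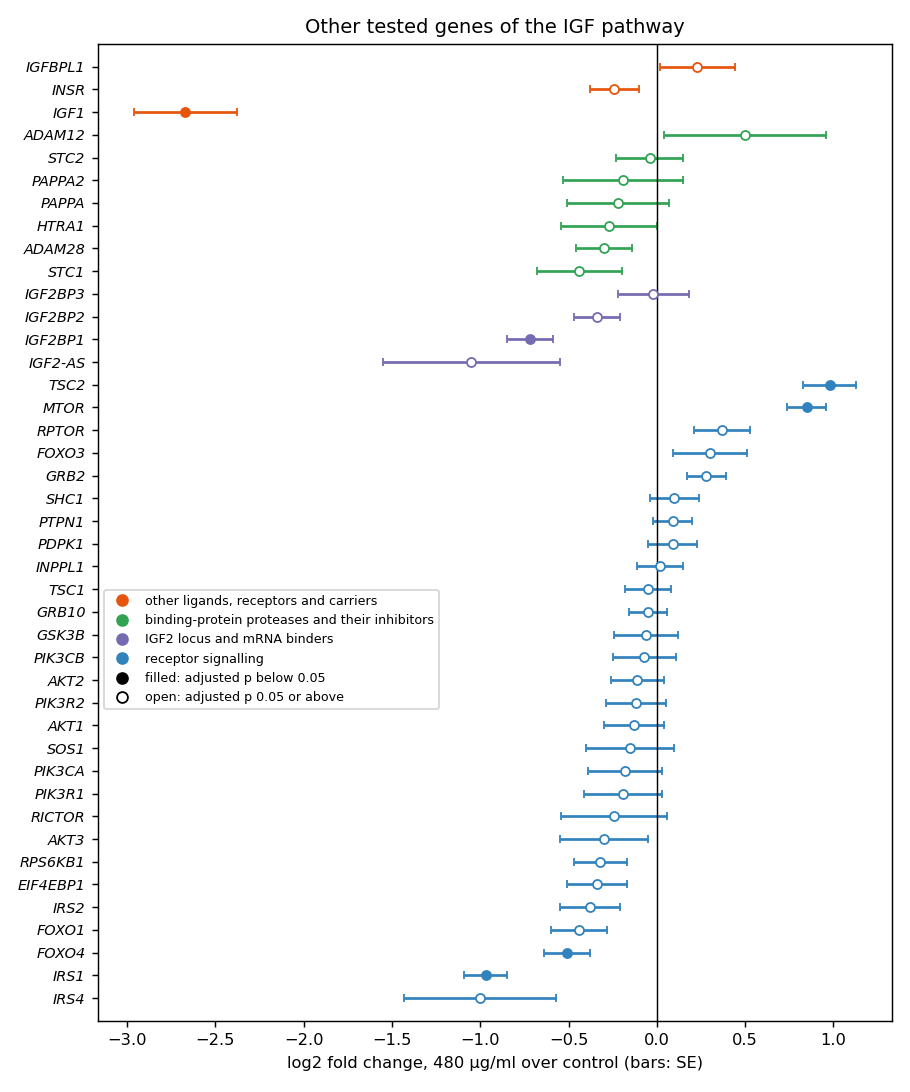
Log2 fold change at 480 µg/ml over control (x axis, bars are the standard error of the edgeR fit) of the other tested genes of the pathway, coloured by list; filled points have an adjusted p below 0.05. IGF1 at -2.67 lies farthest from 0, and TSC2 and MTOR are the filled points to the right of 0.

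The cell type markers went in different directions, and several mesenchymal markers fell at the doses where members fell. Of all tested genes, 13.9% were called lower and 13.9% higher at 480 µg/ml, and 5.17% lower at 240 µg/ml. The marker lists are short, and none was tested as a set. Of the 8 mesenchymal markers, all tested and none at 0, COL1A2, COL3A1 and PDGFRA fell at 240 µg/ml. These 3 with DCN and PDGFRB fell at 480 µg/ml, where TWIST1 rose. COL1A1 was not called, with a log2 fold change of -0.12 ± 0.18 at 240 µg/ml and -0.20 ± 0.18 at 480 µg/ml. The list's median log2 fold change at 480 µg/ml was -0.83. PDGFRA, the platelet-derived growth factor receptor of fibroblasts, fell by 1.56 ± 0.23 on the log2 scale at 480 µg/ml, at 10.9 against 32.2 CPM in control (edgeR adjusted p = 0.00163). The list's summed level overlapped, between 434 and 493 CPM at 480 µg/ml and between 465 and 504 CPM in control, but most of it was LUM, a matrix proteoglycan that was not called (mean 364 CPM at 480 µg/ml and 316 CPM in control). The part of such cells in the falls of IGFBP5, IGFBP3, IGFBP4 and IGF1 was not tested. The 11 type 2 alveolar markers summed to between 95 and 104 CPM at 480 µg/ml, against between 163 and 165 CPM in control. Most of that sum was LPCAT1 (mean 60.2 CPM at 480 µg/ml and 118 CPM in control). Of the 8 tested, 4 were lower (LPCAT1, SLC34A2, SFTPB and NKX2-1). The 1 called higher was ABCA3, at 28.9 against 13.1 CPM in control (edgeR adjusted p = 0.00154). The 9 hepatic markers, all tested, summed to between 66470 and 70906 CPM at 480 µg/ml, against between 54207 and 55804 CPM in control. Most of that sum was AFP, which was not called (mean 49754 CPM at 480 µg/ml and 43349 CPM in control). The 3 called higher were FGA, FGB and TTR. The part of hepatic cells in the levels of IGF2 and IGFBP2 was not tested. Of the 4 intestinal markers, CDX2 rose by 0.97 ± 0.14 and LGALS4 fell by 1.59 ± 0.28 on the log2 scale at 480 µg/ml (edgeR adjusted p = 0.00143 and 0.00403), and the list summed to 2571 to 2966 CPM at 480 µg/ml, against 2573 to 2574 CPM in control, most of it CDH17. Of the 4 neural markers, SOX1 fell by 2.38 ± 0.52 (0.102 against 0.536 CPM; adjusted p = 0.00995), with a list median of -1.09, and the sum of 27.9 to 44.5 CPM at 480 µg/ml, against 26.3 to 28.5 CPM in control, was nearly all TUBB3. None of the 4 endothelial markers was called by edgeR at 480 µg/ml (1 had an unadjusted p below 0.05), at 5.91 to 6.52 CPM in sum at 480 µg/ml, against 5.21 to 6.84 CPM in control. The part of such cells in the members' changes was not tested.

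For each member, the genes most like it were those with the highest Pearson correlation of log2 CPM over the 8 libraries, among tested genes with a mean log2 CPM of at least 3. Since the libraries share 4 dose groups, such correlations mostly follow dose, and they are a description. IGFBP3 was most like CDK2, a cell cycle kinase (r = 0.988), and TGIF2, a transcriptional repressor (0.987). IGFBP4 was most like CHST3 (0.995) and CBX2 (0.990), and IGFBP5 most like CPSF6 (0.994) and LRIG3 (0.990). Such a correlation does not measure the size of a change. At 480 µg/ml CPSF6 fell by 0.36 ± 0.11 and LRIG3 by 0.77 ± 0.13 on the log2 scale, against 2.23 ± 0.21 for IGFBP5. CHST3 fell by 0.54 ± 0.12 and CBX2 by 1.45 ± 0.20, against 0.94 ± 0.17 for IGFBP4. IGF1R was most like ASPM (0.999) and STIL (0.996), which act at the spindle and the centriole. ASPM and STIL fell at 480 µg/ml by 1.80 ± 0.30 and 1.24 ± 0.18 on the log2 scale (edgeR adjusted p = 0.00297 and 0.00168), against 0.64 ± 0.14 for IGF1R. IGF2R was most like SNRNP27 (0.985) and C6orf89 (0.982). IGF2, IGFBP2, IGFBP6 and IGFBP7 had lower best values, with PLEKHA4 (0.973), EMID1 (0.967), COL4A2 (0.971) and SEMA4B (0.934). Among the members themselves, IGFBP5 and IGFBP3 had r = 0.944 and IGFBP5 and IGF2R r = -0.962, whereas IGFBP5 and IGFBP2 had r = 0.258.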

How the data were processed

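The 8 RNA sequencing libraries were made with a stranded mRNA kit, per the labels. Per the submitters' processing notes, the tools were Trimmomatic, HISAT2, Bowtie2 and StringTie with build GRCh38; their versions, their roles and the strand setting of counting are not given in the sources used here. The authors deposited a raw read count, a TPM and an FPKM value per gene symbol and library. FPKM was proportional to TPM within each library and was not tested. Deposited counts were fitted with edgeR 4.0.16 in R 4.3.3: filterByExpr by group (minimum count 10, total 15), TMM factors, and the quasi-likelihood F-test on 1 fit of the 8 libraries, with no term other than group (4 residual degrees of freedom, prior 4.98, common dispersion 0.0226). p-values were Benjamini-Hochberg adjusted over 18303 genes, with a threshold of 0.05, and standard errors are the log2 fold change divided by the square root of F. CPM uses TMM-scaled library sizes. Levels are compared between genes in TPM, except that marker sums and the genes making up most of them are in CPM. The fit was also run on simulated data with the common dispersion for every gene and group. That setting does not cover the wider spread of the 480 µg/ml pair, and its outcome is not given here. Alternatives were RLE factors, DESeq2 1.42.0, no filter on low counts, a filter at 50 counts in 2 libraries, a replicate block, a fit of the compared groups alone, limma 3.58.1 on log2(TPM + 1) and leaving out each library in turn, which leaves 1 library assumed to vary like the rest. All 10 members were named; other pathway genes were named where called against control, up to 4 a list by smallest p. One gene of the receptor signalling list is not reported here. Members, lists and tests were chosen with earlier results of these data known. Replicate numbers were not treated as pairs, since the labels give no shared culture or day for a number. No strong shared deviation of same-numbered libraries was seen. Promoter windows came from RefSeq (GRCh38.p14), and 42656 of 46427 symbols matched it. Low counts limit IGFBP1, below the filter.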

Additional observations from a re-analysis of the deposited data

How the results depend on the processing

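Against control at 480 µg/ml, IGFBP3, IGFBP4 and IGFBP5 kept their direction and stayed past the threshold in all 15 alternatives; the losses for IGF2, IGF1R and IGF2R and for the 240 µg/ml calls stand beside their values above. The number of members called at 240 µg/ml, 2 of 9, was 4 with DESeq2 and 4 in the fit of the compared groups alone, and 0 to 4 with a library left out. At 480 µg/ml, 6 of 9 became 3 to 6, at 240 against 24 µg/ml 2 became 0 to 3, at 480 against 240 µg/ml 0 became 0 to 4 and was 3 with DESeq2 and 3 without a filter, and for any difference 5 became 3 to 6.

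Counts over all genes moved more. DESeq2 called 36 genes at 24 µg/ml and 320 at 480 against 240 µg/ml. Without a filter on low counts edgeR called 83 at 24 µg/ml, 2907 at 240 µg/ml, 2375 at 240 against 24 µg/ml and 465 at 480 against 240 µg/ml. Fits of the compared groups alone called 14 at 24 µg/ml, 5399 at 240 µg/ml, 2858 at 480 µg/ml, 4341 at 240 against 24 µg/ml and 0 at 480 against 240 µg/ml, where edgeR on all groups called 0, 1892, 5085, 1250 and 47. limma on log2(TPM + 1) called 783 at 240 against 24 µg/ml and 11 at 480 against 240 µg/ml. Leaving out 1 library gave 0 to 24 at 24 µg/ml, 120 to 4982 at 240 µg/ml, 2248 to 7889 at 480 µg/ml, 0 to 4630 at 240 against 24 µg/ml, 0 to 1471 at 480 against 240 µg/ml and 2074 to 7207 for any difference. The lowest counts at 240 µg/ml and in its step from 24 µg/ml came without 240 µg/ml replicate 2, and the highest at 480 µg/ml without 480 µg/ml replicate 1. Such fits have fewer libraries, and the cause of the moves was not tested.

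With the replicate number as a replicate block, 1 member was called at 240 µg/ml (IGFBP5; IGFBP3 had adjusted p = 0.0723, and of the other pathway genes IRS1 had 0.0612 and PAPPA2 0.0567) and 1 at 240 against 24 µg/ml (IGFBP4 had 0.0536), and over all genes 621 at 240 against 24 µg/ml and 8 at 480 against 240 µg/ml. The labels give no shared culture or day for a number. Deviations of same-numbered libraries correlated by -0.08 to 0.04 over 18303 genes, so no strong shared deviation was seen. Whether a number marks a shared culture or day is not known.

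Sign changes were seen only among members not called in the comparison concerned. In limma on log2(TPM + 1) the log2 fold changes at 480 µg/ml were -0.05 for IGFBP2 and -0.06 for IGFBP7. IGF2 at 24 µg/ml was 0.00095 with RLE factors and 0.01 with DESeq2, without a filter and in limma, and IGF2R was -0.00048 with the replicate block. With a library left out, the log2 fold changes at 24 µg/ml were -0.004 to 0.58 for IGFBP5, -0.14 to 0.21 for IGFBP6, -0.05 to 0.04 for IGF2, -0.02 to 0.10 for IGF1R and -0.13 to 0.13 for IGF2R. At 240 µg/ml they were -0.44 to 0.03 for IGFBP6, -0.68 to 0.28 for IGFBP7 and -0.07 to 0.36 for IGF2, and at 480 µg/ml -0.19 to 0.18 for IGFBP2 and -0.40 to 0.37 for IGFBP7. Having 2 libraries a group limits the precision, and depth limits IGFBP1.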

Other observations

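H19, the noncoding neighbour of IGF2 that is imprinted in the opposite sense, was at 0 to 0.0999 TPM in the 8 libraries, while IGF2 was at 298 to 574 TPM. PAPPA, the protease that cuts IGFBP4, was at 5.85 and 10.2 CPM at 24 µg/ml, against 3.61 and 4.25 CPM in control, a log2 fold change of 1.03 ± 0.28 that did not pass edgeR's test in that comparison (unadjusted p = 0.00551, adjusted p = 0.990). PAPPA passed the test for any difference among the 4 groups (adjusted p = 0.0333), with means of 4.29 CPM at 240 µg/ml and 3.37 CPM at 480 µg/ml.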
